A study of Mus musculus with 6 samples.

Results

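The genes examined here encode 6 enzymes that write or erase acetyl groups on histones: the acetyltransferases Crebbp, Ep300 and Kat2b, and the class I deacetylases Hdac1, Hdac2 and Hdac3. They were chosen by name, with earlier results of these data known, and all 6 were found among the 12149 genes of the table. Their messenger RNA was measured in single mouse blastocysts (embryonic day 3.5, C57BL/6) grown from zygotes that had received small RNAs of mouse sperm by microinjection at 2 ng/µl, about 96 h before collection. In the Dep group (3 embryos) the small RNAs came from males made depressive by stress, and in the Ctl group (3 embryos) from normal males. Embryos of both groups were thus injected, and uninjected embryos were not analysed here. The labels do not say which embryos shared parents, an injection day or a sperm donor, so p-values measure only the spread between these embryos. The comparison asks whether sperm small RNAs of stressed fathers alter the embryo's transcripts, here those of the histone acetylation machinery.

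Acetylation of histone tails weakens their hold on DNA and is read by bromodomain proteins, and it marks active promoters and enhancers. Crebbp (CBP) and Ep300 (p300) are closely related co-activators that acetylate histone H3 at enhancers, and Kat2b (PCAF) is the catalytic subunit of the SAGA and ATAC co-activator complexes, a place it shares with its paralog Kat2a. Hdac1 and Hdac2 are paralogs that act within the Sin3, NuRD and CoREST corepressor complexes, while Hdac3 acts with the corepressors NCoR and SMRT. In the preimplantation mouse embryo Hdac1 is known as a main deacetylase, and loss of Hdac1 and Hdac2 together is known to block development before implantation.

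In GRCm38, Crebbp (ENSMUSG00000022521) spans 4081328 to 4213997 on chromosome 16, Ep300 (ENSMUSG00000055024) 81585351 to 81652077 on chromosome 15 and Kat2b (ENSMUSG00000000708) 53566861 to 53672720 on chromosome 17. Hdac1 (ENSMUSG00000028800) spans 129516104 to 129542713 on chromosome 4, Hdac2 (ENSMUSG00000019777) 36974544 to 37001889 on chromosome 10 and Hdac3 (ENSMUSG00000024454) 37935844 to 37955016 on chromosome 18. Each is annotated as protein-coding. None shared exon sequence with another gene of the table by position. Hdac1 has a processed pseudogene, Gm10093, with 99.4% identity over 1444 aligned bases, and the table gives it 27.0 to 64.3 normalized counts, which is 0.794% to 1.63% of the Hdac1 value in the same library. How reads were divided between Hdac1 and this copy is not known, and these shares set no bound on the error. Kat2b has a pseudogene, Kat2b-ps, of 95.1% identity over 2479 bases, and Hdac1 a second, AC125456.1, of 96.3% over 1450 bases; neither was in the table, so reads they may have drawn are unknown.

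The libraries held 17213406 to 19439008 reads in listed genes in Dep and 16543356 to 21548220 in Ctl. Dep 1 lacked reads for 691 genes of the table, far more than the 5 to 106 genes at 0 elsewhere. Mitochondrial genes took 3.05% to 4.003% of these reads in Dep and 3.85% to 7.04% in Ctl; with them left out, the log2 folds below kept their sign except that of Hdac2, which lay near 0 either way. Dep 2, Dep 3 and Ctl 2 carried both Xist, at 3784 normalized counts or more, and the Y-linked Ddx3y, at 266 or more, which is unusual for a single embryo. Ctl 3 carried both too, with 874 for Xist and 2202 for Ddx3y, and Dep 1 had 151 for Xist beside 1424 for Ddx3y, so among the 6 libraries only Ctl 1 was near 0 for either gene (Ddx3y 1.18). Of the fixed markers, 9 of 9 epiblast, 10 of 10 trophectoderm and 9 of 10 primitive endoderm genes were listed, and none of 10 cumulus and granulosa or 5 blood genes. Their summed normalized counts for epiblast ranged from 6208 to 14331 in Dep and from 7679 to 11113 in Ctl. Those for trophectoderm ranged from 42619 to 106331 in Dep and from 49680.1 to 74219 in Ctl, and those for primitive endoderm from 20611 to 25773 in Dep and from 20725 to 24373 in Ctl. Fgf4, Gata4, Sox17, Sox7 and Amn were at 0 in Dep 1, as was Gata4 in Ctl 3. Dep 1 nonetheless had the highest primitive endoderm sum, 25773. A summed count therefore rests on the abundant markers and does not show that each marker was present. Of 6 sperm genes only Prm1 was listed (at most 48.6), and of 6 fibroblast genes only Thy1 (at most 31.2).

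RefSeq promoter windows on GRCm38.p6, from 250 bases before to 50 after the start site, were at hand for 4 members. The windows of Crebbp, Ep300 and Hdac2 were rich in G and C, at 82%, 72.3% and 69.7%, against a median of 52.7% over all 32851 windows. That of Kat2b held 47.0%. Hdac2 and Kat2b are shown because they lie at the top and the bottom of the mean normalized counts reported below and because part of their windows is free of annotated exons. Capitals mark the GC box GGGCGG on either strand, searched together with CCAAT, which the parts shown do not hold.
Hdac2, chr10:36974294-36974543, plus strand: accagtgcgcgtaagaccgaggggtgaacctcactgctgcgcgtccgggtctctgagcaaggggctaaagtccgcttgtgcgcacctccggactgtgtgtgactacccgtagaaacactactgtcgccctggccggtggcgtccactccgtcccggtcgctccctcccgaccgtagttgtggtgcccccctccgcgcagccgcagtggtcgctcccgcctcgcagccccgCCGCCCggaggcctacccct
Kat2b, chr17:53566721-53566860, plus strand: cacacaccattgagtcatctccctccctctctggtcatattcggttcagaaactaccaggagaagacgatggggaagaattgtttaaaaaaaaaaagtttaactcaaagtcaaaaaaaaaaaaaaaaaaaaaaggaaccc
The GC box was in the windows of Crebbp, Ep300 and Hdac2, as in 35.7% of all windows, and in neither of the 2 Kat2b windows. CCAAT, present in 37.4% of all windows, occurred in 1 Kat2b window, outside the part shown, and in none of the other 3 genes. The cyclic AMP element TGACGTCA, through which CREB recruits CBP, was in none of these windows and in 1.79% of all. These matches describe letters alone.

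None of the 6 genes differed between Dep and Ctl beyond the spread of the embryos. By limma on log2(normalized count + 1), 0 of 6 passed an adjusted p of 0.05, as did 0% of all 12149 genes, and 0 of 6 had an unadjusted p under 0.05, against 1.85% of all genes. edgeR and DESeq2 on the recovered reads also called 0 of 6 at the adjusted threshold, beside 0% and 0.00823% of all genes, and 0 of 6 at the unadjusted one, beside 1.74% and 2.3%. The groups overlapped for every member, whereas they did not overlap in 6.9% of all genes. The acetyltransferases had negative and the deacetylases positive log2 folds; a positive fold was found in 48.2% of all genes, and each of the 6 intervals below includes 0. Embryos are numbered 1 to 3 in both groups, though the labels do not say that the numbers mark pairs. Same-numbered embryos deviated together to a small degree. Within these pairs, Crebbp and Kat2b were lower and Hdac3 was higher in Dep in 3 of 3, whereas Ep300, Hdac1 and Hdac2 went both ways. Of all genes, 12.6% were higher and 12.6% lower in Dep in all 3 pairs. With the pair as a block, the unadjusted p by limma was 0.139 for Hdac3, 0.148 for Crebbp and 0.324 for Kat2b, and the adjusted p was 0.941 for each. For Hdac1, Ep300 and Hdac2 it was 0.318, 0.716 and 0.905 unadjusted, and 0.941, 0.977 and 0.992 adjusted. The main folds and intervals of the members come from the fit without the block. In whole embryos, fewer cells of a type and less RNA per cell cannot be told apart.

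**Figure D1:**
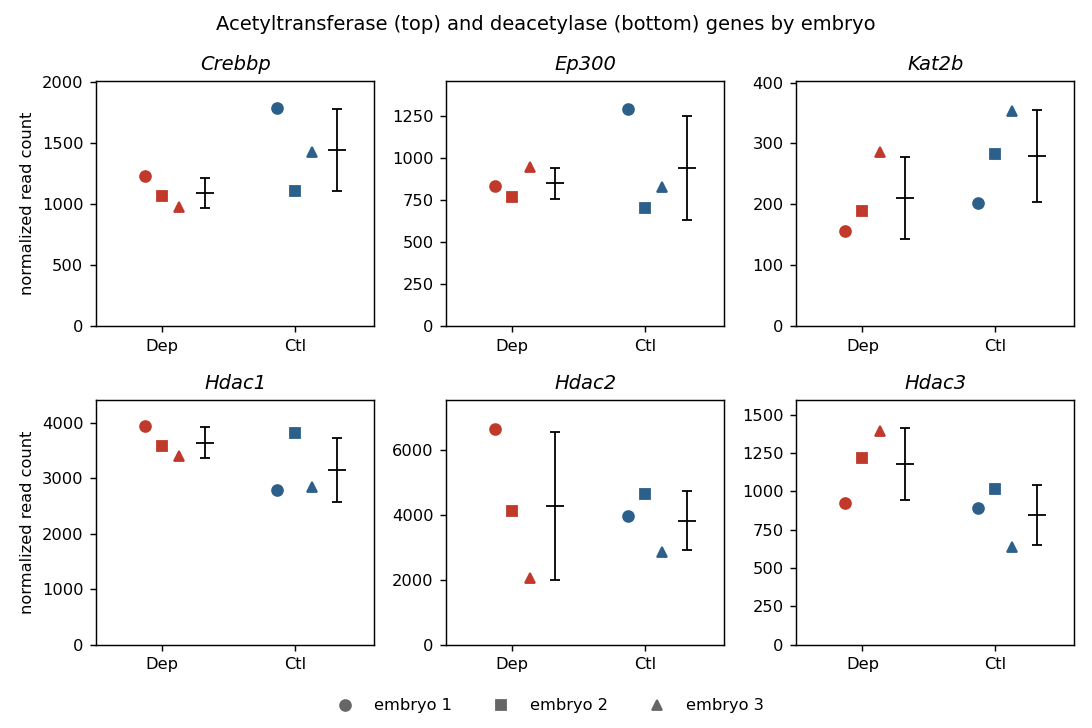
Normalized read counts (y axis, from 0) of the 6 genes in each embryo, Dep left and Ctl right, with symbols for the embryo number and the mean ± SD of 3 embryos beside each group. The groups overlap in every panel, and Hdac2 spreads furthest within Dep, from 2058 to 6630 normalized counts.

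Crebbp had 1225, 1067 and 978 normalized counts in Dep 1, 2 and 3, against 1784, 1109.6 and 1427 in Ctl 1, 2 and 3. Dep 2 and Dep 3 lay below all 3 Ctl embryos, and Dep 1 lay above Ctl 2. The means were 1090.0 ± 125 in Dep and 1440.1 ± 337 in Ctl (SD, n = 3 each), with a log2 fold of -0.38 ± 0.29 (SE; 95% interval -1.02 to 0.26; limma, adjusted p = 0.9997). On a linear scale that interval runs from 0.492-fold to 1.20-fold. Without Ctl 1, the highest embryo, the log2 fold was -0.21.

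Ep300, the paralog of Crebbp, had 830.4, 768 and 948 normalized counts in Dep 1, 2 and 3, against 1292, 705 and 826 in Ctl 1, 2 and 3. The Dep embryos lay within the range of Ctl, whose highest value was again Ctl 1. The log2 fold was -0.11 ± 0.32 (SE; 95% interval -0.82 to 0.61; limma, adjusted p = 0.9997), and it turned to 0.15 without Ctl 1. Crebbp and Ep300 had the most similar profiles of any pair of members. After centring each gene on its own mean, their log2 values differed by 0.23 (root mean square over 6 embryos). The other 14 pairs differed by 0.31 to 0.87. By the same measure Crebbp varied about its own mean by 0.29 and Ep300 by 0.28. The likeness rests on 6 embryos and was not tested.

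Kat2b was the lowest of the 6 by normalized count, with 157, 189 and 287 in Dep 1, 2 and 3, against 202, 282 and 354 in Ctl 1, 2 and 3. Dep 1 and Dep 2 lay below the Ctl embryos, and Dep 3 lay between Ctl 2 and Ctl 3. The log2 fold was -0.42 ± 0.46 (SE; 95% interval -1.43 to 0.60; limma, adjusted p = 0.9997). These values rest on 129 to 401 reads per library, and the interval allows anything from 0.371-fold to 1.51-fold. Kat2a, which can take the place of Kat2b in SAGA and ATAC, averaged 1124 ± 470.2 normalized counts in Dep and 1016 ± 268 in Ctl (SD, n = 3 each), a log2 fold of 0.07 (95% interval -0.81 to 0.96).

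Hdac1 had 3947, 3574 and 3395 normalized counts in Dep 1, 2 and 3, against 2779, 3822 and 2844 in Ctl 1, 2 and 3. Ctl 2 lay among the Dep embryos, and the other Ctl embryos lay below them. The means were 3639 ± 282 in Dep and 3148 ± 585 in Ctl (SD, n = 3 each), and the log2 fold was 0.22 ± 0.25 (SE; 95% interval -0.34 to 0.78; limma, adjusted p = 0.9997). Hdac1 was the steadiest member: its SD of log2 values within groups was 0.20, against a median of 0.38 over the genes in the same one of 10 equal bins of mean count. Its interval is the narrowest of the 6 and reaches 1.72-fold at its upper end.

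Hdac2 had 6630, 4110.2 and 2058 normalized counts in Dep 1, 2 and 3, against 3957, 4650.5 and 2848 in Ctl 1, 2 and 3. The highest and the lowest of the 6 values were both in Dep, and the Ctl embryos lay between them. Its means were 4266 ± 2290.1 in Dep and 3818 ± 909 in Ctl (SD, n = 3 each), with a log2 fold of 0.03 ± 0.40 (SE; 95% interval -0.86 to 0.93; limma, adjusted p = 0.9997). The SD of log2 values within groups was 0.65, in the same bin of mean count as Hdac1. The fold had no settled sign: it was -0.36 without Dep 1 and 0.48 without Dep 3. Without Ctl 2, Dep 2 and Dep 3, it was 0.98. That value rests on Dep 1 alone against Ctl 1 and Ctl 3, and only its size is given here. Among the Dep embryos, the summed trophectoderm markers were also highest in Dep 1, at 106331, against 42619 in Dep 2 and 45878 in Dep 3, and in Ctl 1, 2 and 3 they were 74219, 66591 and 49680.1; their part in the Hdac2 values was not tested.

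Hdac3 had 926, 1216 and 1395 normalized counts in Dep 1, 2 and 3, against 895, 1019 and 635 in Ctl 1, 2 and 3. Dep 2 and Dep 3 lay above all Ctl embryos, and Dep 1 lay between Ctl 1 and Ctl 2. The means were 1179 ± 237 in Dep and 849 ± 196 in Ctl (SD, n = 3 each), and the log2 fold was 0.48 ± 0.31 (SE; 95% interval -0.21 to 1.18; limma, unadjusted p = 0.155, adjusted p = 0.9997). This was the smallest unadjusted p of the 6 genes. The authors' deposited table gives Hdac3 a log2 fold of 0.47 with a standard error of 0.35, and Crebbp one of -0.40 with 0.33, both with an adjusted p of 0.9999.

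**Figure D2:**
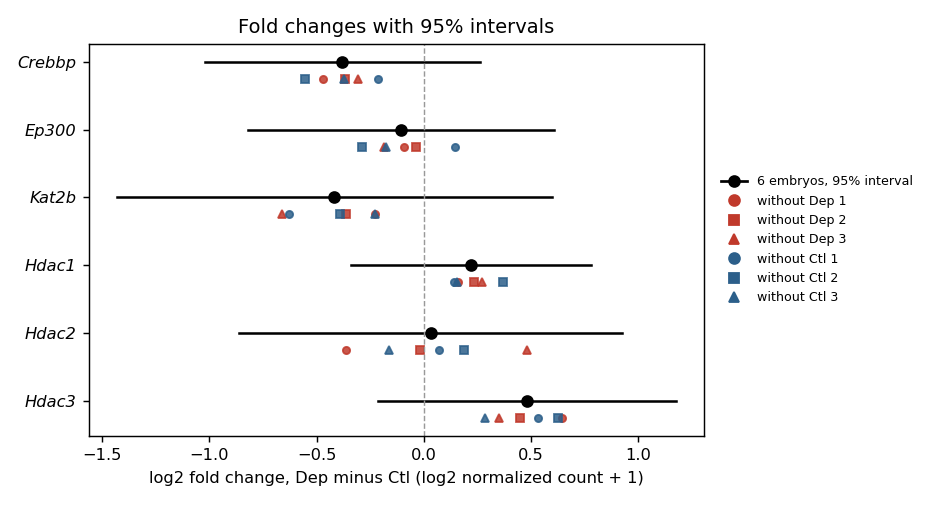
Log2 fold change of Dep minus Ctl (x axis, on log2 normalized count + 1) of each gene from all 6 embryos (black points, bars for the 95% interval) and with 1 embryo left out (coloured symbols beneath, without intervals). All 6 intervals include 0, and the left-out values lie on both sides of 0 for Ep300 and Hdac2.

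Levels were compared between genes per exon length, as FPKM (reads per kilobase of exon, scaled to the library's reads in listed genes). The length joins all annotated exons of a gene and can differ from that of the transcripts present. Such an error is the same in every embryo, so small gaps between genes are uncertain. The deacetylases stood above the acetyltransferases in 6 of 6 embryos. Hdac1 had 54.8, 57.2 and 60.2 FPKM in Dep 1, 2 and 3, against 41.2, 61.7 and 47.1 in Ctl 1, 2 and 3. Hdac2 had 70.9, 50.7 and 28.1 FPKM in Dep 1, 2 and 3, against 45.2, 57.8 and 36.3 in Ctl 1, 2 and 3. These 2 genes were the highest of the 6 in every embryo. Hdac3 had 10.9, 16.5 and 21.01 FPKM in Dep 1, 2 and 3, against 11.3, 14.0 and 8.93 in Ctl 1, 2 and 3. By mean FPKM over the embryos, Hdac1 lay at percentile 89.5 of the genes with an annotated length, Hdac2 at 88.4 and Hdac3 at 69.3, while Crebbp, Ep300 and Kat2b lay at 45.9, 36.3 and 31.8.

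Some neighbours in this order did not differ beyond their spread. Hdac1 exceeded Hdac2 in 4 of 6 embryos, with a log2 ratio of FPKM of 0.21 ± 0.51 (SD, n = 6), so the order of these paralogs was not settled. Hdac2 exceeded Hdac3 in 6 of 6 embryos, at 1.80 ± 0.76, and Hdac3 exceeded Crebbp in 6 of 6, at 1.41 ± 0.66. Crebbp exceeded Ep300 in 6 of 6, at 0.57 ± 0.25, from 1.09-fold in Dep 3 to 1.82-fold in Ctl 3, a gap small enough to depend on the exon lengths used. Ep300 and Kat2b were not separated, as Ep300 was higher in 4 of 6, at 0.34 ± 0.58.

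Balances between members also varied between embryos. The summed FPKM of the 3 deacetylases was 15.8, 13.2 and 9.06 times that of the 3 acetyltransferases in Dep 1, 2 and 3, against 7.25, 12.7 and 6.86 times in Ctl 1, 2 and 3. Ctl 2 lay between Dep 2 and Dep 3, so the groups overlapped. In each same-numbered pair the Dep embryo had the higher ratio, though pair 2 differed little, at 13.2 against 12.7. Of all single genes, 12.6% were higher in Dep in all 3 pairs. No such share was found for ratios of sums, and the ratio was not tested. Hdac2 made up 51.9%, 40.7% and 25.7% of the summed deacetylase FPKM in Dep 1, 2 and 3, against 46.3%, 43.3% and 39.3% in Ctl 1, 2 and 3. The ratio of Hdac2 to Hdac3, chosen for mention after its values were seen, was 6.49, 3.06 and 1.34 in Dep 1, 2 and 3, against 4.01, 4.14 and 4.07 in Ctl 1, 2 and 3. The Ctl ratios were nearly equal, and the Dep ratios lay on both sides of them; no test was made of this.

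**Figure D3:**
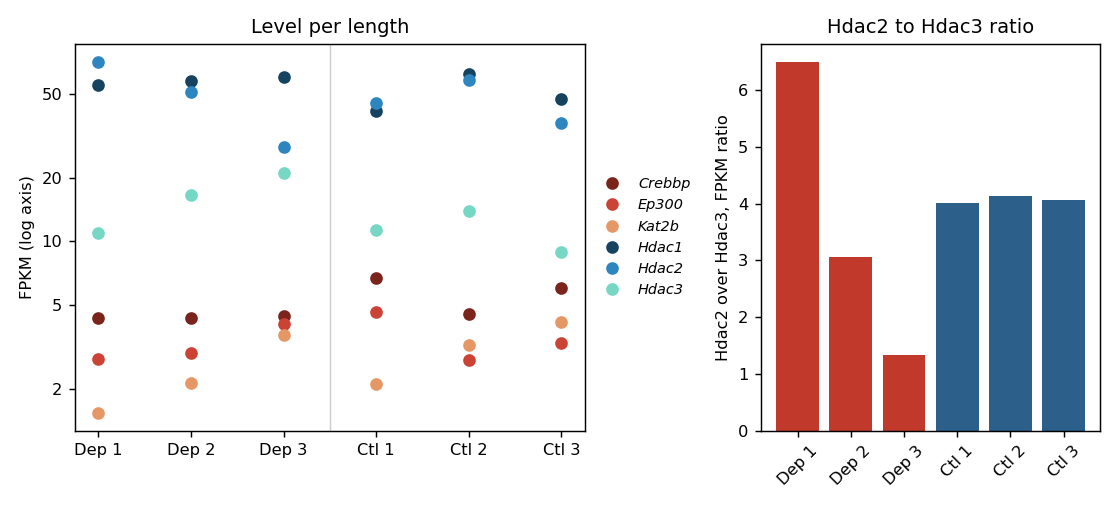
Left, FPKM of the 6 genes (log axis) in each embryo; right, the ratio of Hdac2 to Hdac3 FPKM (bars from 0), Dep red and Ctl blue. Hdac1 and Hdac2 lead in all 6 embryos, and the ratio runs from 1.34 to 6.49 in Dep and from 4.01 to 4.14 in Ctl.

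Genes with the profile most like each member over the 6 embryos were found by the root mean square difference of centred log2 values. Crebbp was nearest to Dhx15, an RNA helicase of the spliceosome cycle, at 0.04, and to Pik3cb, a phosphoinositide 3-kinase subunit, at 0.06. Ep300 was nearest to Tmx4 (0.08) and Mfap1a (0.09), and Kat2b to Trmt44 (0.10) and Phrf1 (0.11). Hdac1 was nearest to Kcmf1 (0.06) and to Stat3 (0.07), the transcription factor downstream of LIF. Hdac2 was nearest to Trappc13 (0.10) and to Cd9 (0.12), a tetraspanin, whose 29777, 15111 and 9731 normalized counts in Dep 1, 2 and 3, against 17794, 20162 and 13338 in Ctl 1, 2 and 3, were likewise highest in Dep 1 and lowest in Dep 3. Hdac3 was nearest to Exosc2 (0.08), a subunit of the RNA exosome, and Uqcc1 (0.09). The median difference from all other protein-coding genes was 0.50 to 0.72, and with 6 embryos some close matches are to be found for any gene.

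The wider machinery was read from 13 lists with 186 measured genes. Of these, 85 had a higher and 101 a lower log2 mean in Dep, 0 passed the adjusted threshold by limma, and 4, or 2.15%, had an unadjusted p under 0.05, beside 1.85% of all genes. The median log2 fold was -0.04, beside -0.02 over all genes. The groups did not overlap for 5 genes that were higher and 6 that were lower in Dep, together 5.91%, beside 3.09% and 3.8% of all genes in these directions. Pooled over the 13 lists, these shares were thus near those of the whole table. By list, positive folds ran from 18.2% of the readers to 80% of the 5 other zinc-dependent deacetylases, beside 48.2% of all genes. With each embryo left out in turn, the median turned sign in 10 of the 13 lists, and kept it in 3: the readers (-0.34 to -0.11), CoREST and MiDAC (-0.41 to -0.065) and the sirtuins (0.16 to 0.32). With Dep 1 alone against Ctl 1 and Ctl 3 these 3 medians were -0.53, -0.43 and -0.11.

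Among other acetyltransferases, 9 of 21 measured genes had positive and 12 negative log2 folds, with 0 past the threshold and a median of -0.08. Hat1, which acetylates newly made histone H4, was the most abundant, at 154 FPKM on average, and had 8900 ± 2839 normalized counts in Dep and 7529 ± 2027 in Ctl (SD, n = 3 each). Esco2, an acetyltransferase of cohesin, had 2698, 2348 and 2154 in Dep 1, 2 and 3, against 4196, 2660.0 and 3028 in Ctl 1, 2 and 3. Elp3, of the Elongator complex, had 1996, 1716 and 1821 in Dep 1, 2 and 3, against 1124, 1689.9 and 1586 in Ctl 1, 2 and 3. Its groups did not overlap, by a margin smaller than their spread (log2 fold 0.35 ± 0.27, SE; limma, unadjusted p = 0.228).

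Other zinc-dependent deacetylases were scarce. Of 8 genes 5 were measured, at a median of 0.833 FPKM, 4 with positive and 1 with negative log2 folds and 0 past the threshold. Hdac4, a class II enzyme, had 174, 172 and 466 normalized counts in Dep 1, 2 and 3, against 207, 251 and 145 in Ctl 1, 2 and 3. Hdac10, known as a polyamine deacetylase, had 19.4, 83.4 and 44.7 in Dep 1, 2 and 3, against 17.8, 138 and 125 in Ctl 1, 2 and 3. The groups overlapped for both genes. All 7 sirtuins, the NAD-dependent deacylases, were measured, 5 with positive and 2 with negative log2 folds (median 0.21). Sirt5, a mitochondrial desuccinylase, had 108, 87.4 and 51.4 normalized counts in Dep 1, 2 and 3, against 26.0, 30.1 and 19.4 in Ctl 1, 2 and 3. The groups did not overlap, but the log2 fold of 1.63 ± 0.83 (SE) had an unadjusted p of 0.0784 by limma at these low counts. Sirt7, a deacetylase of the nucleolus, had 393, 1374 and 1206 in Dep 1, 2 and 3, against 347, 887 and 540.1 in Ctl 1, 2 and 3.

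Partners of the deacetylases gave 0 calls. In the Sin3 complex 11 of 16 measured genes had positive log2 folds (median 0.06), and in NuRD 6 of 12 (median 0.02). Rbbp7, a histone-binding subunit of both, had 6523, 16365 and 6308 normalized counts in Dep 1, 2 and 3, against 18590, 11911 and 7248 in Ctl 1, 2 and 3. Its paralog Rbbp4 had 1533, 1319 and 1239.6 in Dep 1, 2 and 3, against 1284, 1083 and 958 in Ctl 1, 2 and 3. Arid4b of Sin3 had 788, 721 and 1466 in Dep 1, 2 and 3, against 1495, 1247 and 1581 in Ctl 1, 2 and 3. All 3 genes overlapped between groups. CoREST and MiDAC genes had positive folds in 3 of 12 (median -0.18). Rcor2, counted as negative at -1.08, had no reads in Dep 1, although its mean count was 143 in Dep and 77.4 in Ctl. Zmym2 averaged 574 ± 69.6 normalized counts in Dep and 885 ± 279 in Ctl (SD, n = 3 each). Rcor3 averaged 201 ± 104 in Dep and 342 ± 119 in Ctl (SD, n = 3 each). NCoR and SMRT genes, the partners of Hdac3, had positive folds in 2 of 7 (median -0.09). Tbl1x, which links NCoR to histones, had 1771, 1621 and 1534 in Dep 1, 2 and 3, against 2103, 2019 and 2033 in Ctl 1, 2 and 3, without overlap (log2 fold -0.32 ± 0.25, SE; limma, unadjusted p = 0.216), and Kif21a, a kinesin, averaged 218 ± 104 in Dep and 91.7 ± 39.3 in Ctl (SD, n = 3 each).

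Partners of the acetyltransferases also gave 0 calls at the adjusted threshold. Among SAGA and ATAC genes, which work with Kat2a and Kat2b, 11 of 24 had positive log2 folds (median -0.05). Zzz3, a reader subunit of ATAC, had 694, 1046 and 759 normalized counts in Dep 1, 2 and 3, against 1384, 1282 and 1542 in Ctl 1, 2 and 3. All 3 Dep embryos lay below all 3 Ctl embryos, with a log2 fold of -0.77 ± 0.29 (SE; limma, unadjusted p = 0.0229, adjusted p = 0.9997). Taf6l had 384, 472 and 244 in Dep 1, 2 and 3, against 85.2, 418 and 90.9 in Ctl 1, 2 and 3. Tada2a, Usp22 and the Sin3 gene Sinhcaf, named after their values were seen, also had groups that did not overlap, with log2 folds of 0.47, -0.44 and -0.27. NuA4 and MYST complex genes had positive folds in 16 of 30 (median 0.03); Epc1 averaged 242 ± 172 in Dep and 381 ± 60.2 in Ctl (SD, n = 3 each). Actl6a averaged 1254 ± 298 in Dep and 887 ± 354 in Ctl (SD, n = 3 each).

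Of 13 partners of CBP and p300, 5 had positive log2 folds (median -0.14). Cited1 and Cited4, small co-activators that bind CBP and p300, were 2 of the 4 listed genes under an unadjusted p of 0.05. Cited4 had 1209, 692 and 756 normalized counts in Dep 1, 2 and 3, against 374, 325 and 729.9 in Ctl 1, 2 and 3, a log2 fold of 0.94 ± 0.40 (SE; limma, unadjusted p = 0.0400, adjusted p = 0.9997). Cited1 had 548, 624 and 379 in Dep 1, 2 and 3, against 200.02, 346 and 295 in Ctl 1, 2 and 3, a log2 fold of 0.89 ± 0.40 (SE; limma, unadjusted p = 0.0490, adjusted p = 0.9997). The groups overlapped for Cited4, through Ctl 3, and not for Cited1. With 1 embryo left out, the unadjusted p by limma ran from 0.0113 to 0.145 for Cited4, from 0.0298 to 0.158 for Cited1 and from 0.0130 to 0.0828 for Zzz3.

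Genes that restrain, read or feed acetylation gave 0 calls as well. Of 9 inhibitors and chaperones, 3 had positive log2 folds (median -0.10); Set, a subunit of the inhibitor of acetyltransferases, averaged 18153 ± 2689 normalized counts in Dep and 15733 ± 1442 in Ctl, and Anp32a averaged 1513 ± 799 in Dep and 1757 ± 220.2 in Ctl (SD, n = 3 each). Acetyl-lysine readers had positive folds in 4 of 22 (median -0.19), beside 48.2% of all genes. Brdt, the lowest point of this list, had no reads in Dep 1, so its fitted fold depends on the pseudocount. Mllt3, at 1.21 normalized counts in Dep 1, had a fold of -1.49, although its mean was 148 in Dep and 136 in Ctl. Trim33, a bromodomain ubiquitin ligase, had 1499, 1643 and 1497 in Dep 1, 2 and 3, against 2463, 1785 and 2446 in Ctl 1, 2 and 3. Baz2b, another bromodomain protein, had 499, 951 and 1166 in Dep 1, 2 and 3, against 1423, 1267 and 1409 in Ctl 1, 2 and 3. Neither gene's groups overlapped, and their unadjusted p by limma was 0.0765 and 0.0619. Of 10 genes of acetyl-CoA supply, 7 had positive folds (median 0.17). Acly, which makes cytosolic and nuclear acetyl-CoA, had 2660.0, 5140.0 and 5638 in Dep 1, 2 and 3, against 1847, 1554 and 1895 in Ctl 1, 2 and 3, without overlap, a log2 fold of 1.27 ± 0.32 (SE; limma, unadjusted p = 0.00242, adjusted p = 0.9997). It was 1.07 to 1.61 with 1 embryo left out, and 0.51 with Dep 1 alone against Ctl 1 and Ctl 3. Crat, carnitine acetyltransferase, had 550.0, 580 and 297 in Dep 1, 2 and 3, against 84.0, 569 and 318 in Ctl 1, 2 and 3.

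**Figure D4:**
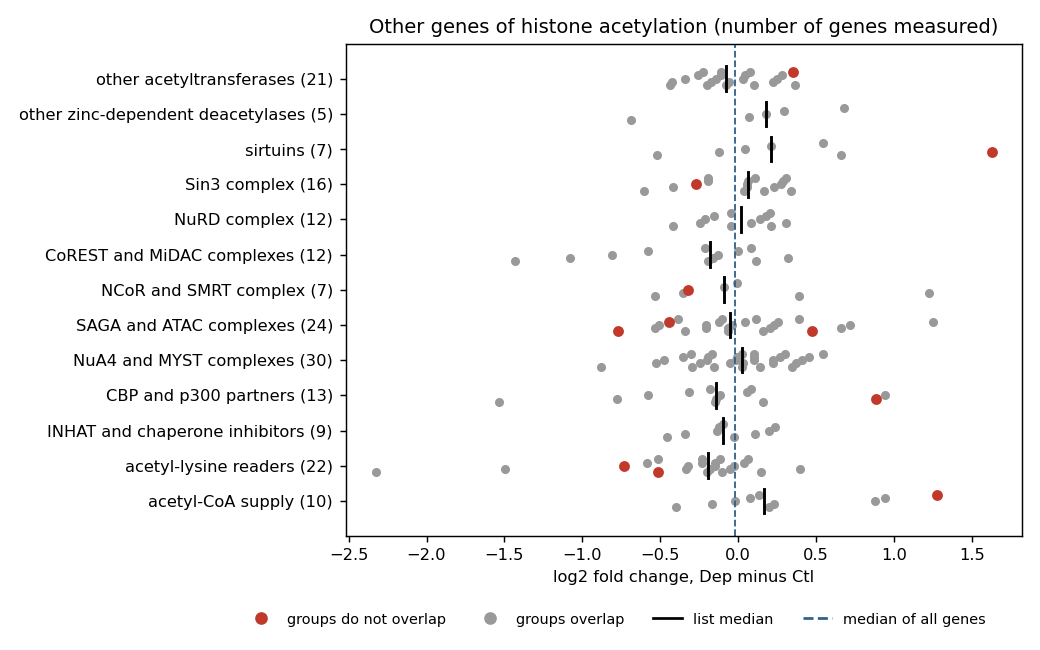
Log2 fold change of Dep minus Ctl (x axis) of each measured gene of the 13 lists (rows, with the number of genes), in red where the groups do not overlap. Black bars are list medians, which run from -0.19 for acetyl-lysine readers to 0.21 for sirtuins, around the dashed median of all genes at -0.02.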

How the data were processed

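Transcripts of 6 blastocysts, sequenced singly, were converted to cDNA with SMART-Seq v4, per the labels' protocols, a kit that does not mark strand. HISAT2, Cufflinks 2.2.1 and the mm10 build appear in the submitters' processing notes without roles, and the program that counted reads is not given in the sources used here. In the deposited table the authors give a signal per gene and library, which by its values is reads divided by 1 size factor, and, per the file headers, a log2 fold change with standard error, test statistic (a score), p-value and adjusted p-value. Dividing each library by its step gave whole reads for 100% of values (tolerance 0.01); the step of Dep 2, 0.993, is close to 1. DESeq2 on these reads came within 4.26e-08 of the deposited log2 folds. The lowest mean listed is 14.2, so depth means reads in listed genes, and without molecular identifiers reads are not independent molecules. No libraries agreed within sampling noise by a chi-square test.

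Genes were named and measured for exon length with GENCODE M21 (GRCm38) by Ensembl identifier; 11829 matched and 320 did not. The test was limma 3.58.1 with a mean-variance trend on log2(normalized count + 1), fitted over 12149 genes with Benjamini-Hochberg adjustment at 0.05. The added 1 shrinks changes of low genes, but a library at 0 can enlarge a fold, as for Brdt, or turn its sign, as for Rcor2. edgeR 4.0.16 and DESeq2 1.42.0 on recovered reads, other scalings, pseudocounts, filters, weights, left-out embryos and the replicate number as a block were alternatives. Fits were also run on simulated counts with 200 genes changed by known folds. Those counts held no pairs and no library like Dep 1, so they do not bear on these features. Deviations of same-numbered embryos correlated with r = 0.133, 0.151 and 0.129 across genes, each over 0.1, which under the rule used here counts as pairing. The remaining matchings of a Dep with a Ctl embryo had r from -0.158 to 0.044. Centring within groups of 3 ties these correlations to one another, so they cannot show that the numbers mark true pairs. Blocking changed no call among the members and gave 420 genes at an unadjusted p under 0.05, against 225 without the block. Near copies were sought with BLAST 2.17.0 among M21 transcripts (95% identity over at least 100 bases). R was 4.3.3 and Python 3.11.15.

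Members and lists were chosen with earlier results of these data known. Text names the members, the 2 genes of smallest p in each list and the 2 nearest profiles per member. After seeing values, it also names Kat2a, Hat1, Sinhcaf, Tada2a, Usp22, Brdt, Rcor2 and Mllt3.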

Additional observations from a re-analysis of the deposited data

How the results depend on the processing

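Over 19 alternative settings, none of the 6 genes passed the adjusted threshold, and the lowest adjusted p among them was 0.160 (Hdac2, without Ctl 2, Dep 2 and Dep 3, where Dep is 1 embryo assumed to vary like Ctl). Crebbp kept a negative log2 fold in 19 of 19 settings (-0.56 to -0.21), as did Kat2b (-0.77 to -0.23), and Hdac1 (0.14 to 0.49) and Hdac3 (0.28 to 0.64) a positive one. Ep300 turned positive in 1 setting, at 0.15 without Ctl 1. It ran down to -0.29 with another embryo left out and to -0.315 over all 19 settings. Hdac2 turned negative in 6: with quantile normalization (-0.032), array weights (-0.12), mitochondrial genes left out (-0.0062), and without Ctl 3 (-0.16), Dep 1 (-0.36) or Dep 2 (-0.02). It reached 0.48 without Dep 3, and 0.98, its highest value, without Ctl 2, Dep 2 and Dep 3. Of genes named from the lists, Hdac4 ran from -0.18 (without Dep 3) to 0.54 and Anp32a from -0.74 to 0.0083 (without Dep 3) with 1 embryo left out, and without Ctl 2, Dep 2 and Dep 3 Sirt7 was at -0.14 and Anp32a at 0.38. In that fit Baz2b passed, at -1.50, on the same assumption. The cause of these turns was not tested.

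Over all genes, 0 passed in 17 of the settings, 1 with DESeq2, and 580 without Ctl 2, Dep 2 and Dep 3, a fit with 1 Dep embryo, the one with 691 genes at 0. Leaving out Ctl 3 as well, which also carried Xist and Ddx3y, leaves 1 embryo a group and no test. Genes at an unadjusted p under 0.05 numbered 225, 399 with array weights, 420 with the replicate block, 122 to 576 with 1 embryo left out, and 2253 without Ctl 2, Dep 2 and Dep 3. The block changed no other call. The table lists no gene with a mean under 14.2, so a filter below that could not be tried. At 3 embryos per group, the median 95% interval over all genes reached 0.97 to each side on the log2 scale, and smaller differences could mostly not be told from the spread.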
